A study of Mus musculus with 13 samples.

Results

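The genes described here encode ion channels and ionotropic receptors. Ion channels are membrane proteins that let potassium, sodium, calcium or chloride cross the cell membrane, and ionotropic receptors are channels opened by a transmitter such as glutamate or GABA. Members were taken by symbol: every row of the count table named for a potassium (Kcn), voltage-gated sodium (Scn), calcium (Cacn), hyperpolarization-activated (Hcn), acid-sensing (Asic), ionotropic glutamate (Gria, Grid, Grik, Grin), GABA-A (Gabra, Gabrb, Gabrg, Gabrd), TRP (Trpc, Trpm, Trpv) or CLC (Clcn) gene, without the long non-coding RNA Kcnq1ot1. This rule gave 151 of 13549 genes. By role 148 of them fall into 21 families, and 3 are not channel subunits: Grid2ip, which encodes delphilin, a scaffold protein of synapses, and the antisense or long non-coding genes Kcnd3os and Kcnmb4os2, whose counts are uncertain because no source used here gives the strand setting of the counting. The table lists genes with at least 1 read in every library, and channel genes outside it were not analysed here.

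Oligodendrocyte precursor cells (OPCs) are the dividing glial cells that give rise to the myelinating cells of the central nervous system. They are known to carry voltage-gated sodium, potassium and calcium channels and to receive synapses from neurons through AMPA, NMDA and GABA-A receptors. Much of this equipment is known to be lost as the cells differentiate, while inwardly rectifying potassium channels such as Kir4.1 (Kcnj10) set the resting potential and take up potassium in mature oligodendrocytes. Eed belongs to the core of Polycomb repressive complex 2 (PRC2). This enzyme places the silencing mark H3K27me3 on chromatin, and the mark is typically found at promoters rich in CpG dinucleotides.

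RNA sequencing covered 9 libraries of cells cultured from the brains of C57BL/6 mice. OPCs were kept dividing with NT-3 and PDGF. Immature oligodendrocytes (iOLs) were taken on day 2 after thyroid hormone (T3) was added and PDGF withdrawn, so that the change of medium and differentiation cannot be told apart. The groups were 2 libraries of control OPCs, 3 of Eed conditional knockout (cKO) OPCs, 2 of control iOLs and 2 of cKO iOLs. Animals were at postnatal day 7 for control OPC 1 and cKO OPC 1 and 2, and at day 6 for control OPC 2, cKO OPC 3 and all 4 iOL libraries. The genotype field of the labels reads EED cKO for controls too, so genotype was taken from the sample titles, and no source used here gives the Cre line or the alleles of the controls. All groups share the strain and the tissue, while the medium differed between OPCs and iOLs as given above. The labels do not say whether replicates were separate animals or cultures, so p-values measure only the spread between these samples. Chromatin immunoprecipitation and input samples, 4 in all, were not analysed here.

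Total counts ran from 17417529 to 19680398 reads per library. The channel and receptor genes drew 0.964% and 1.03% of the reads in control OPCs, 1.19%, 1.18% and 1.03% in cKO OPCs, 0.678% and 0.674% in control iOLs, and 0.756% and 0.751% in cKO iOLs. Eed itself was at 21.7 and 16.8 CPM (read counts scaled to a common library size, by TMM factors) in control OPCs, and cKO OPCs held 13.3, 11.8 and 12.5 CPM. In iOLs it was at 18.0 and 21.2 CPM in controls and at 14.6 and 12.1 CPM in cKO. Every cKO library was below every control of its stage, but the difference passed the test in neither (log2 −0.62 ± 0.17, edgeR adjusted p = 0.0847 in OPCs, and −0.55 ± 0.18, adjusted p = 0.0973 in iOLs). The table gives 1 value for the whole gene, so reads from a transcript that lacks the deleted part would still be counted. The 2 control OPC libraries stood apart from each other, with a chi-square of 106 per degree of freedom over all genes, against 6.48 between the control iOLs. Their summed CPM of 8 astrocyte marker genes was 3432 at postnatal day 7 and 9444 at day 6, and the cKO OPCs split the same way, at 3034 and 3250 on day 7 and 7721 on day 6. The summed CPM of 7 myelin genes was 6437 in control OPC 1 and between 1012 and 2744 in the other 4 OPC libraries. Of 6 listed OPC markers all were in the table, with sums of 11370 to 15030 CPM in OPCs and 3773 to 4606 CPM in iOLs. In controls 4 of them were lower in iOLs. Olig2 (log2 −0.25 ± 0.15, edgeR adjusted p = 0.215) and Sox10 (0.42 ± 0.17, edgeR adjusted p = 0.069) did not pass the test. In bulk RNA of this kind, fewer cells of a type and less RNA per cell cannot be told apart.

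Promoter sequences are given because PRC2 is known to act at CpG-rich promoters. RefSeq promoters on GRCm38.p6, the assembly also named mm10, were read for 108 of the 151 genes, each from 250 bases before to 50 bases after a transcription start. The motif CG, which reads the same on both strands, occurred at a median of 13 times in the 155 promoters of these 108 genes, against 20 in promoters of all genes in the table and 7 in all 32851 promoters. The promoters printed here are those of Cacna2d1 and Kcns1, which were higher in Eed cKO cells at both stages, and Kcnh1, which had the largest rise with differentiation. Sequences run 5′ to 3′ along the gene, with each CG in capitals. Cacna2d1 lies at chr5:15934441-15934740 on the plus strand, Kcns1 at chr2:164171064-164171363 on the minus strand, and Kcnh1 at chr1:192190527-192190826 on the plus strand.
Cacna2d1: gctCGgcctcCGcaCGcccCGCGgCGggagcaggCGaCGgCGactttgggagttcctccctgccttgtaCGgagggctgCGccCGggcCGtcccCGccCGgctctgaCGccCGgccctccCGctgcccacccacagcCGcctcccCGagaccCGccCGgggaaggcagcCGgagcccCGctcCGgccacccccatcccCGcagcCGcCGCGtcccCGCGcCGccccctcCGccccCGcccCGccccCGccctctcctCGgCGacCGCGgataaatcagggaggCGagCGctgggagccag
Kcns1: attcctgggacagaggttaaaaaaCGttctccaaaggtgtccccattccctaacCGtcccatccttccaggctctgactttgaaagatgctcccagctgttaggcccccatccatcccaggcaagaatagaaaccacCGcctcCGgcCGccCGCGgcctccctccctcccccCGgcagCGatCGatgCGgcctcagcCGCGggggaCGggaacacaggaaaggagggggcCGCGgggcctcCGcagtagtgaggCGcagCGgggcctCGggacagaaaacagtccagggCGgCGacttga
Kcnh1: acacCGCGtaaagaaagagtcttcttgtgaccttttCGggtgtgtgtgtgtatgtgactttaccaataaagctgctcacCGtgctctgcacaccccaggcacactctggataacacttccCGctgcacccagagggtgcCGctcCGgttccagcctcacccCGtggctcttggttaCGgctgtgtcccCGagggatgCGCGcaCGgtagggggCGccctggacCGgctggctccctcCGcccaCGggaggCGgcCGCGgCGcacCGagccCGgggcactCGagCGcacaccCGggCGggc
The Cacna2d1 promoter held 42 CG, and 3.03% of all promoters held as many or more. The Kcns1 promoter held 22, a number that 23.1% of all promoters reached, and the Kcnh1 promoter held 27, which 15.5% reached. A count of CG describes the letters of this window and does not show that a factor is bound there.

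Differentiation lowered most channel and receptor genes and raised a few, mainly potassium channels. In control cells 85 of the 151 genes fell and 14 rose from OPCs to iOLs, and 52 did not pass the test. The falls made up 56.3% of the genes, against 25.3% of all genes tested, and the rises 9.27%, against 21.0%. The median log2 fold change was −0.85, against −0.06 over all genes. The stages did not overlap for 101 genes that were lower in iOLs (66.9%, against 37.6% of all genes) and for 19 that were higher (12.6%, against 34.3%). Calls are at an adjusted p under 0.05 by edgeR's quasi-likelihood test with Benjamini-Hochberg adjustment over all 13549 genes, and log2 fold changes carry their standard errors. All iOLs came from day 6 animals, and set against the day 6 control OPC library alone, all 14 rises and all 85 falls had the same direction. That library also entered the test that called these genes, so the shared direction is no separate test of postnatal day. With each library left out in turn, 8 of the 14 rises and 66 of the 85 falls held every time, and the number of rises dropped to 9 without control iOL 1.

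**Figure D1:**
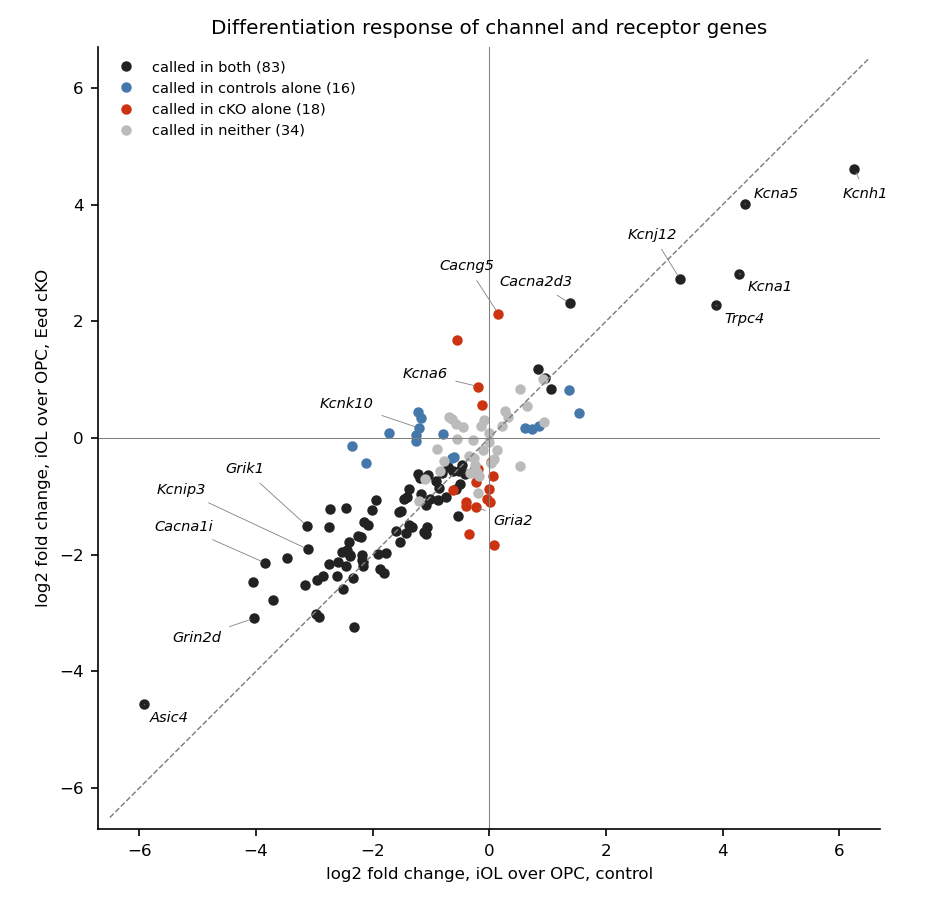
Differentiation response of the 151 genes in control cells (horizontal axis) and in Eed cKO cells (vertical axis), each as the log2 fold change of iOLs over OPCs. Each point is a gene, the colours give the comparisons in which it passed the test, and the dashed line marks equal responses; most points lie in the lower left part, and Kcnh1, Kcna1, Kcna5, Trpc4 and Kcnj12 lie far to the upper right.

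Among the 30 pore-forming subunits of voltage-gated potassium (Kv) channels, 4 rose and 17 fell in controls. Kcnh1, which encodes the ether-à-go-go channel Kv10.1 (gene at chr1:192189144-192510159), was at 1.17 and 1.0 CPM in control OPCs and at 93.8 and 72.7 CPM in control iOLs. The groups were far apart, and the log2 rise was 6.26 ± 0.43 (edgeR adjusted p = 8.91e-06), the largest of the 151. Kcna1, the Kv1.1 subunit, was at 9.78 and 12.3 CPM in control OPCs and 249 and 181 CPM in control iOLs, a log2 rise of 4.28 ± 0.29 (edgeR adjusted p = 8.23e-06). Kcna5, the Kv1.5 subunit, stood at 1.11 and 1.16 CPM in control OPCs and 26.5 and 21.1 CPM in control iOLs, a log2 rise of 4.38 ± 0.36 (edgeR adjusted p = 2.23e-05). None of these 3 genes overlapped between stages. The fourth, Kcna2 (Kv1.2), moved from 121 and 128 to 198 and 218 CPM, a smaller log2 rise of 0.74 ± 0.13 (edgeR adjusted p = 0.00156).

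Falling Kv genes included the A-type channel subunit Kcnd2 (Kv4.2), at 173 and 222 CPM in control OPCs and 47 and 39.8 CPM in control iOLs, a log2 change of −2.19 ± 0.18 (edgeR adjusted p = 2.57e-05). Kcnc2 (Kv3.2) changed by −3.7 ± 0.32 (edgeR adjusted p = 3.09e-05), Kcnf1, an electrically silent modifier subunit, by −2.96 ± 0.24 (edgeR adjusted p = 2.06e-05), and Kcnc4 (Kv3.4) by −2.96 ± 0.32 (edgeR adjusted p = 9.17e-05) on the log2 scale. Within the Kcna family the direction was not shared: Kcna1, Kcna2 and Kcna5 rose while Kcna4, at 5.97 and 4.11 CPM in OPCs and 0.795 and 1.17 CPM in iOLs, fell by 2.35 ± 0.40 (log2, edgeR adjusted p = 0.00133). Kcna6 was at 179 and 210.3 CPM in control OPCs and 171 and 171 CPM in control iOLs and did not pass the test (log2 −0.19 ± 0.12, edgeR adjusted p = 0.236). Kcna3, a channel linked to OPC division, had a log2 change of −1.08 ± 0.39 (edgeR adjusted p = 0.0437), but without control OPC 2 it was −0.37 with an adjusted p of 0.383 by edgeR.

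The accessory subunits of Kv channels moved one way, with 8 of 10 falling and none rising. Kcnip3, a calcium-binding protein of Kv4 channels also known as DREAM, was at 585 and 559 CPM in control OPCs and at 72 and 60.7 CPM in control iOLs, without overlap, a log2 change of −3.11 ± 0.16 (edgeR adjusted p = 3.78e-06). The 7 two-pore (K2P) channels, which carry background potassium current, all passed the test, 6 lower and 1 higher. Kcnk3 (TASK-1) changed from 14.4 and 12.8 to 0.795 and 0.833 CPM, and pooled counts of 489 and 29 reads gave a ratio of 16.7 with an exact 95% interval of 11.5 to 25.1, for counting error only. Kcnk2 (TREK-1) changed from 103 and 85.9 to 17.4 and 25.1 CPM, and Kcnk10 (TREK-2) from 34.2 and 35.6 to 16.3 and 14 CPM. The riser was Kcnk5 (TASK-2), from 2.58 and 2.05 to 5.79 and 7.61 CPM, a log2 change of 1.53 ± 0.27 (edgeR adjusted p = 0.00163). Kcnk9 (TASK-3) fell by 2.11 ± 0.65 on the log2 scale with an edgeR adjusted p of 0.0244, but without control OPC 1 by 0.90 with an adjusted p of 0.233, and without control OPC 2 by 2.78.

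Of the 9 inwardly rectifying (Kir) channels 4 rose and 2 fell. Kcnj12 (Kir2.2) was at 0.762 and 0.684 CPM in control OPCs and at 7.95 and 6.11 CPM in control iOLs, a log2 rise of 3.27 ± 0.38 (edgeR adjusted p = 0.000158). Its pooled reads, 26 against 250, gave a ratio of 9.74 with a 95% interval of 6.49 to 15.2. The G-protein-gated Kcnj3 (Kir3.1) rose from 11.5 and 12.6 to 22.7 and 20.8 CPM. Kcnj6 (Kir3.2) had a log2 change of 0.95 ± 0.34 (edgeR adjusted p = 0.0459), and without control OPC 2 it was 1.65 with an adjusted p of 0.00244 by edgeR. Kcnj16 (Kir5.1), a partner of Kir4.1, went the other way, from 45.9 and 65.9 to 12.8 and 12.2 CPM, a log2 change of −2.16 ± 0.26 (edgeR adjusted p = 0.000195).

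Kcnj10, the Kir4.1 channel, did not pass the test, and its control OPC libraries were far apart. It was at 259 and 612 CPM in control OPCs, 286, 281 and 498 CPM in cKO OPCs, 634 and 619 CPM in control iOLs and 624 and 652 CPM in cKO iOLs. The 3 low libraries were those from postnatal day 7, and the 2 OPC libraries from day 6 were near the iOLs. Against the day 6 library of the same genotype, the log2 difference of iOLs was 0.03 in controls and 0.36 in cKO. The summed CPM of the 8 astrocyte markers, all in the table, followed the same split, as given above. S100b did not follow it in controls, at 158 CPM on day 7 and 107 CPM on day 6. Kir4.1 is known in astrocytes too, and the part of astrocyte RNA and of postnatal day in its level was not tested.

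**Figure D2:**
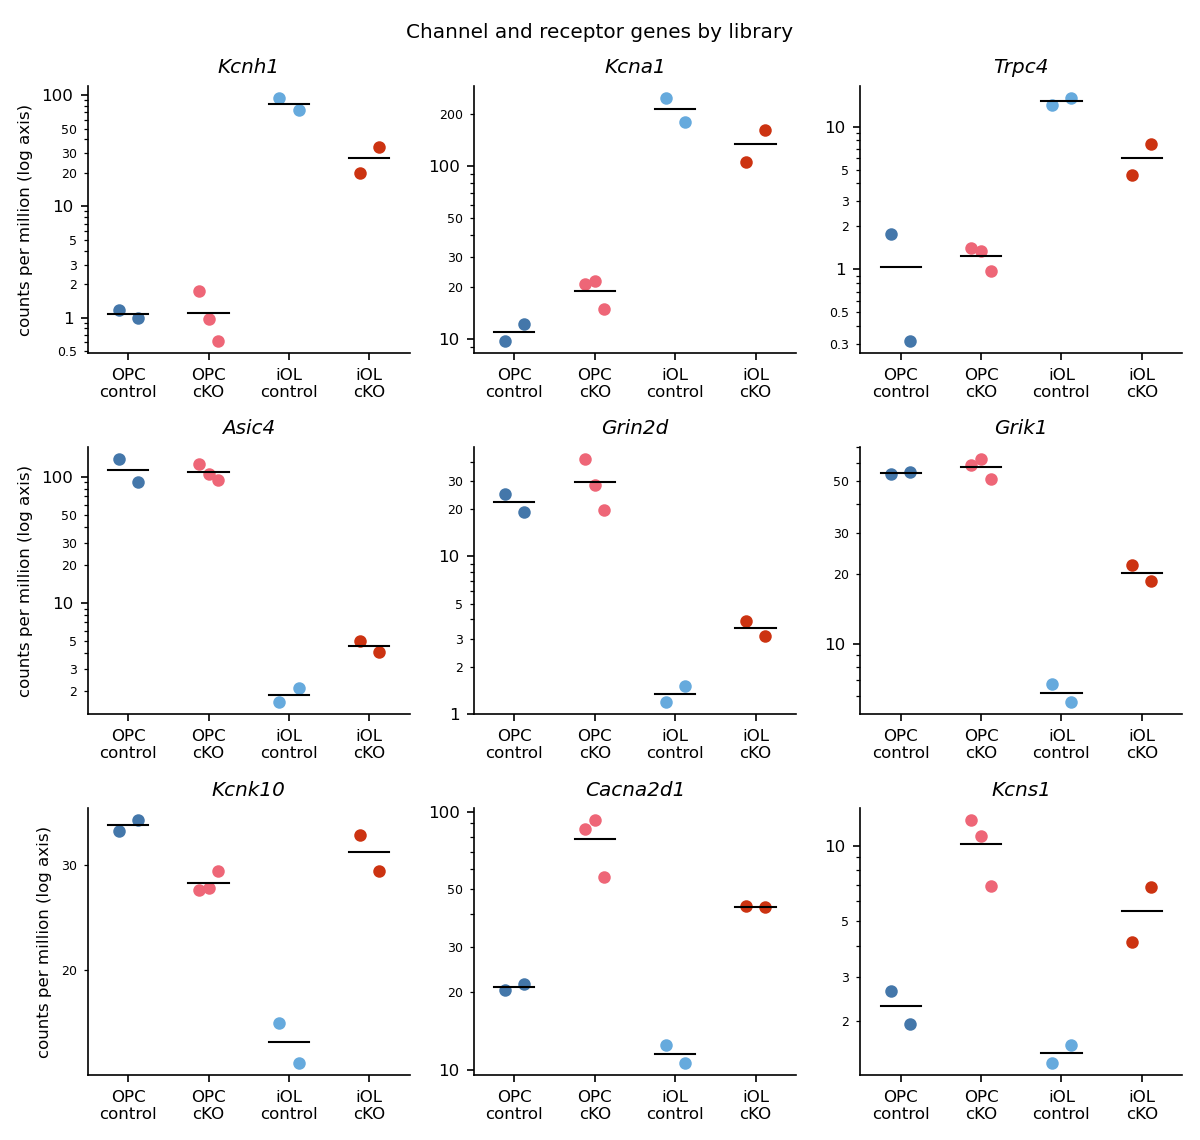
CPM in each of the 9 libraries for genes that the comparisons turn on, on a log axis, with a point per library and a line at the group mean. Kcnh1 and Kcna1 rise from OPCs to iOLs, Asic4, Grin2d and Grik1 fall, Kcnk10 falls in control cells alone by the test, and Cacna2d1 and Kcns1 are higher in Eed cKO cells at both stages.

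Sodium and calcium channel genes fell in most cases. Of the 6 pore-forming sodium channel genes 5 fell, among them Scn1a (Nav1.1), from 36 and 37.9 to 8.01 and 6.83 CPM, and Scn2a (Nav1.2), from 45 and 47.4 to 21 and 21.5 CPM. Scn3a (Nav1.3), an embryonic form, changed by −0.53 ± 0.19 (edgeR adjusted p = 0.0476) and Scn8a (Nav1.6) by −0.58 ± 0.19 (edgeR adjusted p = 0.0344) on the log2 scale, calls that held in 3 and 4 of the 9 fits that left out 1 library each. Scn3b, an auxiliary β subunit, had the largest change of the sodium channel genes, from 105 and 119 to 18.1 and 21 CPM (log2 −2.52 ± 0.16, edgeR adjusted p = 6.14e-06). Among the 8 pore-forming calcium channel genes 6 fell. The low-voltage-activated T-type genes all fell: Cacna1i (Cav3.3) from 18.6 and 19.4 to 1.53 and 1.11 CPM, Cacna1g (Cav3.1) from 60.3 and 76.1 to 15.5 and 13.3 CPM, and Cacna1h (Cav3.2) from 82.5 and 93.2 to 42.3 and 45 CPM. The log2 change of Cacna1i was −3.84 ± 0.34 (edgeR adjusted p = 3.47e-05). The P/Q-type Cacna1a and the L-type Cacna1c, the 2 that did not pass, changed by −0.19 ± 0.14 (edgeR adjusted p = 0.31) and −0.23 ± 0.18 (edgeR adjusted p = 0.319) on the log2 scale. An auxiliary subunit moved against the rest: Cacna2d3 (α2δ-3) rose from 32.2 and 24.4 to 75.2 and 71.8 CPM, a log2 change of 1.38 ± 0.20 (edgeR adjusted p = 0.000601), while Cacna2d1 and Cacna2d2 fell.

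The acid-sensing channels held the largest fall of the 151. Asic4, a member with no known proton-gated current of its own, was at 137 and 90 CPM in control OPCs and at 1.65 and 2.11 CPM in control iOLs, a log2 change of −5.91 ± 0.29 (edgeR adjusted p = 2.86e-06). Asic1, the main proton-gated subunit of brain cells, changed from 194 and 173 to 46.5 and 51.9 CPM, and Asic2 from 71.2 and 59.4 to 6.99 and 7.66 CPM. No library of one stage reached the other for these 3 genes. The pacemaker channel gene Hcn4 fell by 1.26 ± 0.25 (log2, edgeR adjusted p = 0.00303). Among calcium-activated and sodium-activated potassium channels 3 of 8 fell, including Kcnma1, the BK channel pore, and Kcnt1 (Slack), from 30 and 34.6 to 9.14 and 7.61 CPM.

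TRP channels were mixed. Trpc4, a receptor-operated cation channel, was at 1.76 and 0.316 CPM in control OPCs and 14.3 and 15.8 CPM in control iOLs, a log2 rise of 3.88 ± 0.55 (edgeR adjusted p = 0.00045). Its size rests on the control OPC libraries, being 5.54 without the first and 3.09 without the second. Trpv4, an osmotically and mechanically sensitive channel, rose from 10.8 and 7.9 to 20 and 18.5 CPM, and Trpm7, a channel fused to a kinase, from 60 and 64.6 to 92.5 and 98 CPM. Trpc1 fell by 0.71 ± 0.15 and Trpm3 by 1.77 ± 0.39 on the log2 scale (edgeR adjusted p = 0.0036 and 0.00552), the latter by 0.89 without control OPC 2. Of the 7 CLC genes 3 fell and none rose. Clcn2, a plasma membrane chloride channel whose loss is known to disturb myelin, fell by 0.82 ± 0.14 (log2, edgeR adjusted p = 0.0014), while the endosomal Clcn3, at 172 and 256 CPM in OPCs and 230.0 and 225 CPM in iOLs, and the lysosomal Clcn7, at 72 and 90.5 CPM in OPCs and 81.3 and 80.9 CPM in iOLs, did not pass.

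Glutamate receptors divided by subtype. All 6 NMDA receptor genes passed the test, 5 lower and 1 higher. The obligatory subunit Grin1 was at 127 and 113 CPM in control OPCs and at 21.5 and 20.7 CPM in control iOLs, a log2 change of −2.51 ± 0.15 (edgeR adjusted p = 5.55e-06). Grin2d (GluN2D) changed from 25 and 19.3 to 1.19 and 1.5 CPM, and Grin3a (GluN3A), a subunit that lowers calcium entry, from 211 and 321 to 116 and 88.2 CPM. Grin2a (GluN2A) was the riser, from 2.58 and 1.58 to 3.41 and 4.0 CPM (log2 0.84 ± 0.29, edgeR adjusted p = 0.0417), a call that held in only 2 of the 9 fits that left out 1 library each. None of the 4 AMPA receptor genes passed the test in controls, where Gria2, Gria3 and Gria4 changed by −0.23 ± 0.26, −0.04 ± 0.18 and −0.01 ± 0.14 on the log2 scale. Gria1 was at 125 and 279 CPM in control OPCs and 125 and 133 CPM in control iOLs, with the day 6 library the high one. The AMPA receptor partner Cacng4 (TARP γ-4) fell from 1229 and 772 to 464 and 398 CPM, a log2 change of −1.22 ± 0.22 (edgeR adjusted p = 0.00203).

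Kainate receptor genes fell in 2 of 5 cases, and the size of the falls was unequal. Grik1 (GluK1, gene at chr16:87895901-88290863) was at 53.9 and 54.8 CPM in control OPCs and at 6.76 and 5.66 CPM in control iOLs, a log2 change of −3.13 ± 0.17 (edgeR adjusted p = 3.78e-06). Grik5 (GluK5) changed by −0.47 ± 0.15 (edgeR adjusted p = 0.0267), and Grik2 (GluK2) and Grik3 (GluK3) by −0.26 ± 0.19 and 0.03 ± 0.18 without passing. Of the 11 GABA-A receptor genes 9 fell and none rose. Gabra3 (α3) changed from 93.6 and 92.9 to 27.3 and 23.9 CPM and Gabrg1 (γ1) from 59.6 and 72.1 to 21.7 and 23.9 CPM. The stages overlapped for neither subunit. Gabrb1 (β1), at 27.9 and 52.5 CPM in OPCs and 41.7 and 55.1 CPM in iOLs, did not pass. Scaffold and accessory proteins of glutamate receptors outside the rule, 23 genes such as the Dlg, Shank and Cnih families, fell in 13 cases and rose in 2, and 17 partners of GABA-A and glycine receptors fell in 8 cases and rose in 1.

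**Figure D3:**
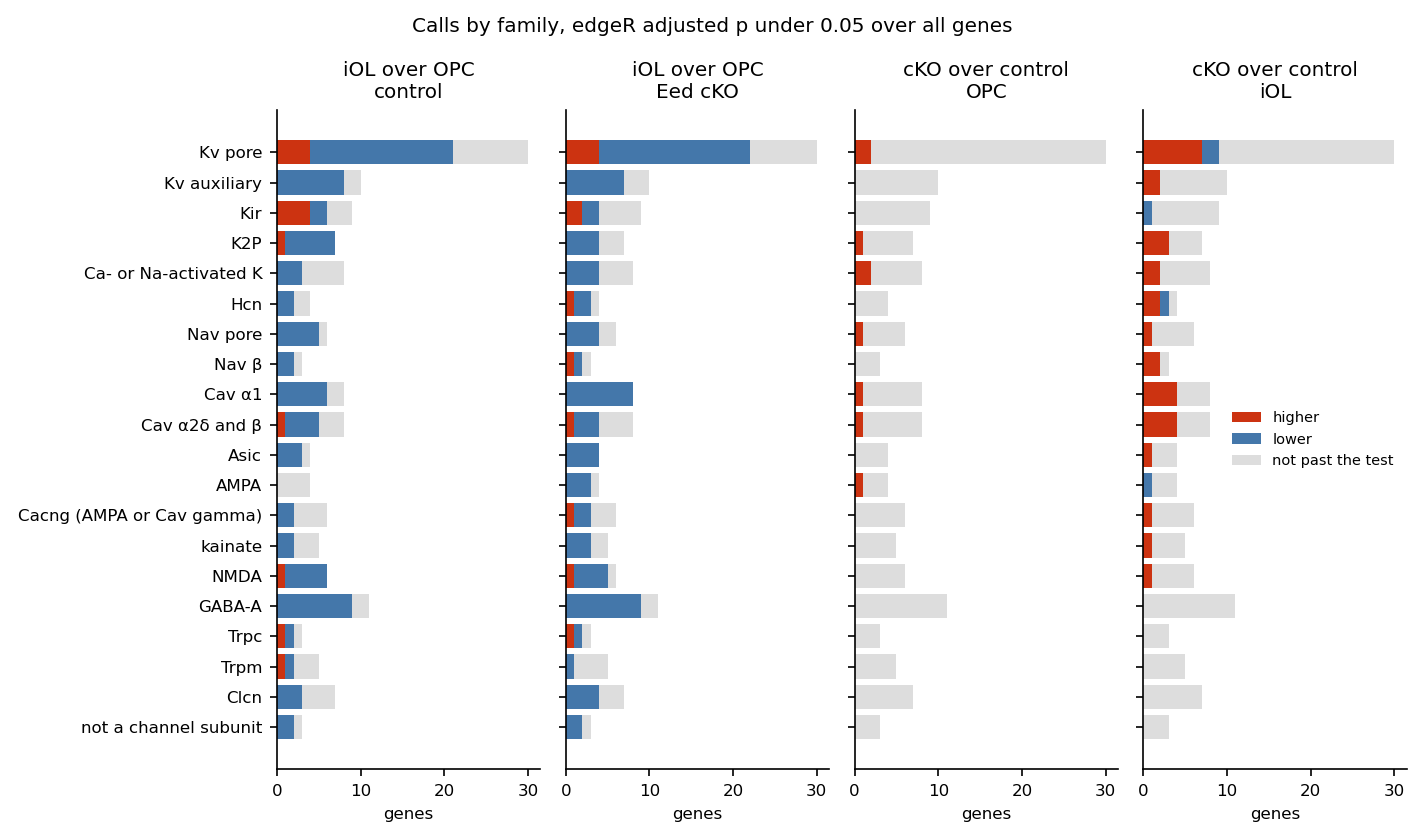
Number of genes of each family of 3 or more (horizontal axis) that were higher (red), lower (blue) or not past the test (grey) in each of the 4 comparisons, so that a full bar is the size of the family. The lowest bar holds the 3 genes that are not channel subunits. With differentiation, lower genes outnumber higher ones in most families in both genotypes. In the genotype comparisons most genes are not past the test, with more of the called genes higher than lower.

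In Eed cKO cells, too, most channel and receptor genes fell. From cKO OPCs to cKO iOLs 88 genes fell and 13 rose, which is 58.3% and 8.61% of the 151, against 21.8% and 18.5% of all genes, with a median log2 fold change of −0.75 against −0.005 over all genes. The stages did not overlap for 100 genes that were lower (66.2%, against 34.7% of all genes) and 21 that were higher (13.9%, against 34.3%). The 2 comparisons share no library. Of the falls, 74 were called in both genotypes, 87.1% of those in controls and 84.1% of those in cKO, and 9 rises were shared, 64.3% and 69.2%. No gene was called in opposite directions. The same overlaps over all genes were not counted, and both comparisons come from 1 fit with a shared estimate of the spread. The 9 shared rises were Kcna1, Kcna5, Kcnh1, Kcnj6, Kcnj12, Cacna2d3, Grin2a, Trpc4 and Trpv4. Set against the day 6 cKO OPC library alone, all 101 calls had the same direction, but that library was among those that gave the calls. Of 5 committed oligodendrocyte markers 4 rose from OPCs to iOLs in controls (median log2 change 1.93), and in cKO 1 rose, Bcas1, and 1 fell, Gpr17 (median 0.27). Their summed CPM was 2117 to 2352 in cKO OPCs and 1594 and 2243 in cKO iOLs, but none of the 5 passed the test of the difference between responses. The astrocyte marker Gfap rose in both, by 2.38 ± 0.53 in controls and 4.59 ± 0.50 in cKO on the log2 scale (edgeR adjusted p = 0.00566 and 0.000115), a difference that did not pass the test (edgeR adjusted p = 0.137). Their part in the channel genes' response was not tested. Kcnh1 was at 1.74, 0.969 and 0.619 CPM in the cKO OPCs and at 19.8 and 34.4 CPM in cKO iOLs, a log2 rise of 4.61 ± 0.35 (edgeR adjusted p = 1.67e-05). Asic4 was at 125, 105 and 94.1 CPM in the cKO OPCs and at 5.0 and 4.12 CPM in cKO iOLs, a log2 change of −4.57 ± 0.25 (edgeR adjusted p = 4.01e-06).

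Some genes were called in cKO cells and not in controls, which alone does not show that the responses differ. AMPA receptor genes fell in cKO cells in 3 of 4 cases. Gria3 (GluA3) changed from 368, 426 and 279 CPM in cKO OPCs to 170.0 and 176 CPM in cKO iOLs, a log2 change of −1.05 ± 0.17 (edgeR adjusted p = 0.00112), and Gria2 (GluA2) by −1.18 ± 0.25 (edgeR adjusted p = 0.00449). The test of the difference between responses gave −1.0 ± 0.24 for Gria3 with an edgeR adjusted p of 0.0753, and −0.95 ± 0.35 for Gria2 with 0.203, so neither passed. Cacng5 (TARP γ-5) rose in cKO cells, from 27, 26 and 49.3 to 164 and 135 CPM (log2 2.13 ± 0.41, edgeR adjusted p = 0.00313, and 1.38 with postnatal day as a term), and the day 6 OPC library was the highest of the 3.

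In OPCs, 9 channel and receptor genes were higher in Eed cKO than in control cells and none passed the test as lower. The 9 are 5.96% of the 151, and 2.94% of all genes were called higher. In the other direction 0.303% of all genes were called lower. The median log2 fold change was 0.18, against −0.02 over all genes. At an unadjusted p under 0.05 there were 38 higher and 7 lower, against 1784 and 1693 of all 13549 genes. DESeq2 called 20 of the 151 higher and none lower, and its share over all genes is not given here. The groups did not overlap for 42 genes that were higher in cKO (27.8%, against 16.9% of all genes) and for 15 that were lower (9.93%, against 17.4%). All 9 genes were higher in cKO within postnatal day 7 and within day 6, but these are the libraries that gave the calls. The count rests on single libraries: it was 2 without control OPC 1, 29 without control OPC 2, 3 without cKO OPC 1, 3 without cKO OPC 2 and 30 without cKO OPC 3, and 6 without any 1 of the iOL libraries. With postnatal day as a term it was 20, and with the 2 OPC groups alone it was 3. Shares over all genes are not given for these other fits, so the shifts are not shown to be particular to the 151 genes.

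Cacna2d1 encodes α2δ-1, an auxiliary calcium channel subunit that is the target of gabapentin, and its gene lies at chr5:15934264-16374511. It was at 20.3 and 21.6 CPM in control OPCs and at 85.6, 92.7 and 56 CPM in cKO OPCs. All 3 cKO libraries were far above both controls, and the log2 difference was 1.9 ± 0.21 (edgeR adjusted p = 0.00143). It was 2.13 within day 7 and 1.37 within day 6, and the call held without any 1 library. Kcns1, a silent modifier subunit of Kv channels, stood at 2.64 and 1.95 CPM in controls and 12.6, 10.9 and 6.92 CPM in cKO. Its log2 difference was 2.15 ± 0.34 (edgeR adjusted p = 0.0113), and without control OPC 1 the adjusted p was 0.0538. Both genes had non-overlapping groups, with the day 6 cKO library the lowest of the cKO in each.

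Among the others, Kcnk5 was at 2.58 and 2.05 CPM in control and 7.59, 5.92 and 5.11 CPM in cKO OPCs (log2 1.42 ± 0.26, edgeR adjusted p = 0.0181). Kcnc1 (Kv3.1), a fast delayed rectifier, was at 48.1 and 54.9 CPM in control and 109, 105 and 80.6 CPM in cKO OPCs (log2 0.93 ± 0.15, edgeR adjusted p = 0.0138). Both calls were lost without control OPC 1, cKO OPC 1 or cKO OPC 2, with an adjusted p of up to 0.0716 for Kcnk5 and 0.0847 for Kcnc1 by edgeR. A further 4 were closer to the threshold: Kcnma1 (log2 0.84 ± 0.16, edgeR adjusted p = 0.0257), Gria3 (0.8 ± 0.17, edgeR adjusted p = 0.0349), Kcnt1 (0.74 ± 0.15, edgeR adjusted p = 0.0273) and Cacna1g (0.73 ± 0.15, edgeR adjusted p = 0.0298). Each of these 4 calls was lost without control OPC 1, without cKO OPC 1 or without cKO OPC 2, with an adjusted p of up to 0.131, and also without 2 or more of the iOL libraries. Their groups did not overlap either. Among the pore-forming calcium channel genes all 8 had log2 differences above 0, of which 1 passed the test and 7 had an unadjusted p under 0.05. Cacna1e (Cav2.3) was at 120.4 and 141 CPM in controls and 243, 244 and 163 CPM in cKO, with an edgeR adjusted p of 0.0633.

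Of these 9 genes 5 had a promoter in the RefSeq table, namely Cacna2d1, Kcns1, Kcnc1, Kcnma1 and Kcnk5. Their promoters held 22 to 42 CG, with a median of 36, against 12 in the 150 promoters of genes that did not pass in OPCs. The median was 20 in promoters of all genes in the table, and 27 in the 13 of genes that rose with differentiation in controls. In iOLs the median was 19 in the 22 promoters of genes higher in cKO and 26 in the 5 of genes lower in cKO. It was 12 in the 128 promoters of genes that did not pass there. A link of CG number with genotype was not tested. Neuron markers were higher in the cKO OPCs for 2 of 18 genes, Gad2 and Slc32a1, both of the GABA system. The summed CPM of the 18 was 1560 and 1387 in control OPCs and 2242, 2277 and 1583 in cKO OPCs. Map2 was the highest of the 18, at 649 and 731 CPM in control OPCs and 1159, 1198 and 841 CPM in cKO OPCs. It did not pass the test (edgeR adjusted p = 0.0924). The endothelial markers Flt1 and Kdr were also higher, at a sum of 1.88 and 2.79 CPM in controls and 9.7 to 10.5 CPM in cKO, while the other 3 of that list are not in the table. Of 5 committed oligodendrocyte markers 1 was lower, Gpr17, and of 7 myelin genes 1 was lower, Cnp. The part of other cells or of lineage stage in the channel genes' differences was not tested.

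In iOLs, Eed cKO cells held 31 channel and receptor genes above and 5 below control cells, which is 20.5% and 3.31% of the 151, against 7.08% and 3.51% of all genes. The median log2 fold change was 0.29, against −0.004 over all genes. The groups did not overlap for 80 genes that were higher in cKO (53.0%, against 33.6% of all genes) and 31 that were lower (20.5%, against 34.3%). Rises were 4 of 8 in the pore-forming calcium channels, 4 of 8 in their α2δ and β subunits, 3 of 7 in K2P, 7 of 30 in Kv pores and none in the GABA-A, AMPA, Kir, CLC and TRP families. The groups hold 2 libraries each, and the count rests on single ones: the number higher was 9 without control iOL 1, 12 without control iOL 2, 17 without cKO iOL 1 and 12 without cKO iOL 2. The count lower was none, 1, none and 3 in the same order, and 2 without cKO OPC 1 or cKO OPC 2. Of the 31, 8 held without any 1 library: Cacna1g, Cacna1i, Cacna2d1, Grik1, Hcn4, Kcnc1, Kcnk10 and Kcnt1.

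**Figure D4:**
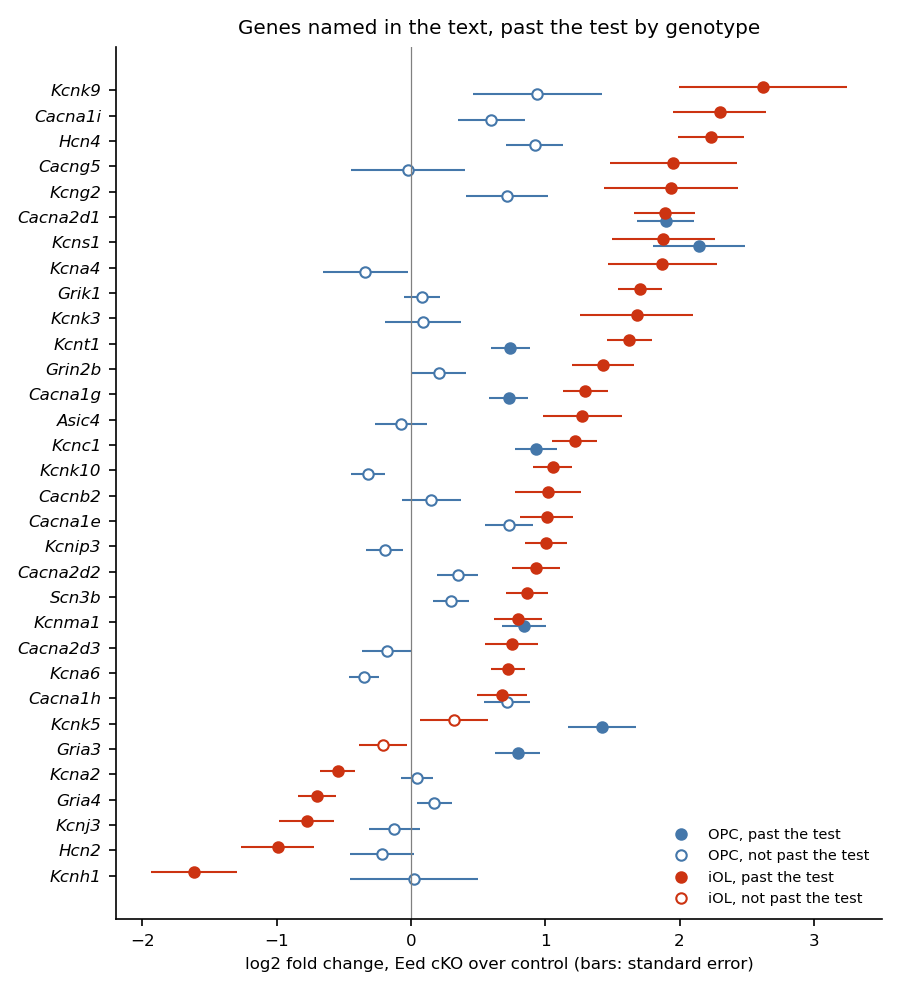
Log2 fold change of Eed cKO over control in OPCs and in iOLs for genes named in the text that were called in either comparison, with bars of 1 standard error. Cacna2d1 and Kcns1 lie far above 0 at both stages, and Kcnh1, Hcn2, Gria4, Kcnj3 and Kcna2 lie below 0 in iOLs.

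The 2 comparisons share no library, and 7 genes were higher in both, among them Cacna1g, Cacna2d1, Kcnc1, Kcnma1, Kcns1 and Kcnt1. These 7 are 77.8% of the 9 called in OPCs and 22.6% of the 31 called in iOLs. The overlap over all genes was not counted, and both comparisons come from 1 fit with a shared estimate of the spread. Cacna2d1 was at 12.5 and 10.7 CPM in control iOLs and at 43.2 and 42.7 CPM in cKO iOLs. The log2 difference of 1.89 ± 0.23 (edgeR adjusted p = 0.00149) was close to that in OPCs, and the difference between the 2 was −0.01 ± 0.31, which did not pass the test. Kcns1 was at 1.36 and 1.61 CPM in control and 4.15 and 6.82 CPM in cKO iOLs (log2 1.88 ± 0.38, edgeR adjusted p = 0.0143). Kcnt1 was at 9.14 and 7.61 CPM in control and 27.7 and 24.1 CPM in cKO iOLs (log2 1.63 ± 0.17, edgeR adjusted p = 0.000842), and Kcnc1 at 30.1 and 36.3 CPM in control and 76.4 and 78.3 CPM in cKO iOLs (log2 1.22 ± 0.17, edgeR adjusted p = 0.00268). In all of these the 2 cKO libraries were above the 2 controls. The calls of Kcns1 and Kcnma1 were lost without either control iOL library and without cKO iOL 2, with an adjusted p of up to 0.154 by edgeR.

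The other 24 genes higher in cKO iOLs included pacemaker, T-type calcium and NMDA receptor genes. Hcn4 was at 7.62 and 6.37 CPM in control OPCs and 3.18 and 2.67 CPM in control iOLs, and in cKO iOLs it stood at 12.3 and 15.2 CPM, a log2 difference from control iOLs of 2.23 ± 0.25 (edgeR adjusted p = 0.00111). Its level in cKO OPCs was similar, at 15.5, 13.7 and 10.6 CPM. These were above both control OPC libraries, but the difference in OPCs did not pass the test. Cacna1i was at 1.53 and 1.11 CPM in control and 4.89 and 8.14 CPM in cKO iOLs (log2 2.3 ± 0.35, edgeR adjusted p = 0.00402), which was still below every OPC library. Grin2b (GluN2B), an NMDA subunit typical of immature neurons, was at 5.45 and 6.72 CPM in control and 14.2 and 18.7 CPM in cKO iOLs (log2 1.43 ± 0.23, edgeR adjusted p = 0.00519), a call lost without control iOL 1 at an adjusted p of 0.0664. Kcnk9 rests on few reads, 15 against 99, a ratio of 6.24 with a 95% interval of 3.6 to 11.6. Asic4, the gene with the largest fall, was at 1.65 and 2.11 CPM in control and 5.0 and 4.12 CPM in cKO iOLs (log2 1.28 ± 0.30, edgeR adjusted p = 0.0252), and that call was lost without any 1 of the 4 iOL libraries.

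Genes lower in cKO iOLs were Kcnh1, Hcn2, Gria4, Kcnj3 and Kcna2, and none of the 5 calls held without every library in turn. Kcnh1 was at 93.8 and 72.7 CPM in control iOLs and at 19.8 and 34.4 CPM in cKO iOLs, a log2 difference of −1.62 ± 0.32 (edgeR adjusted p = 0.0128) that was lost without control iOL 1 or cKO iOL 1. The groups did not overlap, and both cKO values were above every OPC library. Hcn2, which is known in oligodendrocytes of white matter, was at 23.2 and 24 CPM in control and 11 and 12.7 CPM in cKO iOLs (log2 −0.99 ± 0.27, edgeR adjusted p = 0.0488). Gria4 (GluA4) was at 177 and 171 CPM in control and 107 and 108 CPM in cKO iOLs (log2 −0.7 ± 0.14, edgeR adjusted p = 0.0147), Kcna2 at 198 and 218 CPM in control and 127 and 158 CPM in cKO iOLs (log2 −0.54 ± 0.13, edgeR adjusted p = 0.0277), and Kcnj3 at 22.7 and 20.8 CPM in control and 12.9 and 12.5 CPM in cKO iOLs (log2 −0.78 ± 0.20, edgeR adjusted p = 0.0407). Each of these 4 calls was lost without control iOL 1, control iOL 2 or cKO iOL 1, among others, with an adjusted p of up to 0.276 by edgeR. Kcna1 was at 249 and 181 CPM in control and 106 and 163 CPM in cKO iOLs and did not pass (log2 −0.68 ± 0.25, edgeR adjusted p = 0.127). Kcna5, which also rises with differentiation, was at 26.5 and 21.1 CPM in control and 24.9 and 40 CPM in cKO iOLs and did not pass either (log2 0.45 ± 0.28, edgeR adjusted p = 0.405).

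Markers of lineage stage moved with genotype in the same iOL libraries. All 5 committed oligodendrocyte markers were lower in cKO iOLs, with summed CPM of 7644 and 7160 in controls and 1594 and 2243 in cKO. Of 7 myelin genes 4 were lower, with sums of 4765 and 4926 in controls and 1058 and 1483 in cKO. OPC markers summed to 4606 and 4296 CPM in controls and 4187 and 3773 CPM in cKO, with Cspg4 higher and Olig2 lower. Astrocyte markers summed to 6664 and 6833 CPM in controls and to 9527 and 11500 CPM in cKO, with 1 of 8 genes, S100b, lower and none higher. Gfap made up most of these sums, at 3778 and 3655 CPM in controls and 6115 and 7938 CPM in cKO. It did not pass the test (edgeR adjusted p = 0.338). Neuron markers summed to 1785 and 1727 CPM in controls and 1644 and 1619 CPM in cKO, with 3 of 18 genes higher. The endothelial markers Flt1 and Kdr summed to 40.4 and 35.3 CPM in controls and 87.5 and 103.5 CPM in cKO. Their part in the channel genes' differences was not tested.

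The response to differentiation itself differed by genotype for 4 genes, all less lowered or more raised in cKO cells. They are 2.65% of the 151, against 0.945% of all genes called in that direction and 0.886% in the other. At an unadjusted p under 0.05 there were 28 in that direction and 17 in the other, against 1230 and 1245 of all 13549 genes. DESeq2 called 13 and 5 of the 151, and its shares over all genes are not given here. Grik1 fell by 3.13 ± 0.17 in controls and by 1.5 ± 0.14 in cKO on the log2 scale, a difference of 1.63 ± 0.21 (edgeR adjusted p = 0.0125). It was at 58.8, 62.4 and 51.3 CPM in the cKO OPCs and 21.8 and 18.8 CPM in the cKO iOLs, the latter above both control iOLs and below every OPC library. In cKO cells Kcnip3 was at 444, 489.6 and 564 CPM in OPCs and 133 and 133 CPM in iOLs, and its responses of −3.11 ± 0.16 and −1.91 ± 0.15 differed by 1.2 ± 0.20 (edgeR adjusted p = 0.0288). Kcnk10 fell by 1.20 ± 0.14 in controls, and in cKO cells it was at 27.2, 27.4 and 29.2 CPM in OPCs and 33.6 and 29.3 CPM in iOLs (0.17 ± 0.13, not past the test), a difference of 1.37 ± 0.19 (edgeR adjusted p = 0.0156). Kcna6 (Kv1.6) was at 149, 146 and 164 CPM in the cKO OPCs and 275 and 289 CPM in the cKO iOLs and rose by 0.88 ± 0.11, a difference from controls of 1.07 ± 0.17 (edgeR adjusted p = 0.0213). All 4 calls were lost without control iOL 1, control iOL 2 or cKO iOL 1, and those of Kcna6, Kcnip3 and Kcnk10 also without cKO iOL 2, cKO OPC 1 or cKO OPC 2. The adjusted p reached 0.078 for Grik1, 0.121 for Kcna6, 0.153 for Kcnip3 and 0.0843 for Kcnk10 by edgeR. The number called in that direction was none without control iOL 1, control iOL 2 or cKO iOL 1, 1 without cKO iOL 2, cKO OPC 1 or cKO OPC 2, 7 without control OPC 1, 15 without control OPC 2 and 9 without cKO OPC 3. With postnatal day as a term it was 19. Calls in the other direction, of which the fit had none, numbered 6 with postnatal day as a term, 8 with the replicate number as a block (against 7), 1 without control OPC 1, and 12 without control OPC 2 or cKO OPC 3.

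Across the 9 libraries the genes whose log2 CPM was most like that of Grik1 were Cacna1i (Pearson r 0.983) and Cacna2d2 (0.979). Those most like Kcnt1 were Kcng2 (0.983), Cacna1e (0.977) and Cacna1g (0.973), and those most like Hcn4 were Kcnc1 (0.940), Cacnb2 (0.929) and Kcnk9 (0.925). The libraries fall into 4 groups, so these values describe group levels shared by the genes.

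Channels, pumps and partners outside the rule were read from lists, and the genes of these lists given here were picked after their values were seen. Of 39 further channel genes, 5 were higher and 1 lower in cKO OPCs, 12.8% and 2.56%, against 2.94% and 0.303% of all genes. The mechanically gated channels Piezo2 and Piezo1 were among them, with log2 differences of 2.12 ± 0.22 and 1.57 ± 0.27 (edgeR adjusted p = 0.000971 and 0.0161), as were the nicotinic receptor genes Chrna5, Chrna4 and Chrnb2. In cKO iOLs 3 were higher and 2 lower, 7.69% and 5.13% of the 39, near the 7.08% and 3.51% of all genes. Of 16 ion pump and exchanger genes 6 were higher (37.5%) and none lower in cKO iOLs, among them the sodium pump regulators Fxyd1 (2.82 ± 0.53) and Fxyd7 (2.44 ± 0.34). Of 25 channel anchors and modulators, 3 (12%) were higher in cKO OPCs, and in cKO iOLs 4 (16%) were higher and 1 (4%) lower, the last being Dpp10, an auxiliary protein of Kv4 channels, which fell by 1.21 ± 0.19. Of the 23 glutamate receptor partners Cnih3, an AMPA receptor auxiliary protein, was higher in both, by 0.84 ± 0.15 in OPCs and 0.97 ± 0.18 in iOLs (edgeR adjusted p = 0.0181 and 0.0101).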

How the data were processed

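RNA was sequenced from 9 libraries. The deposited table holds raw counts of reads per gene, which the authors made with cutadapt 1.14, STAR 2.6.0 and featureCounts of Subread 1.6.2 on mm10, per the submitters' processing notes. Per the labels' protocols, libraries came from a stranded polyA kit or, for small RNA amounts, an amplifying kit, and the kit of each library is not stated, so kit and group cannot be told apart. A second header row was left out. The lowest count was 1, and every gene had at least 10 counts in at least 4 libraries.

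Counts were fitted in R 4.3.3 with edgeR 4.0.16 (quasi-likelihood test, TMM factors, minimum count 10, a filter that every gene passed). The 9 libraries entered 1 fit with 4 group means and 5 residual degrees of freedom. The biological coefficient of variation was 16.3%. Each standard error was the absolute log2 fold change divided by the square root of F. CPM are TMM-scaled, and log2 CPM used a prior count of 2. Exact 95% binomial intervals pool a group's reads and cover counting error only, where 30 or fewer reads were pooled. Reads were not counted by molecule. The test was checked on simulated counts that gave all genes the same spread and held no effect of postnatal day. That check therefore does not cover differences such as those between the control OPC libraries.

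The 151 genes, the families and the lists were chosen with earlier results of these data known. Named in the text are genes called by genotype or by the difference of responses, up to 12 genes each way by fold with at least 5 CPM for differentiation, the gene with most reads of each family, and 53 genes known in this lineage, 52 of them in the table. Some genes that the rule names are not reported here. Alternatives were RLE size factors, no filter, 1 CPM in 4 libraries, only the groups compared, a replicate block, postnatal day as a term, DESeq2 1.42.0 and each library left out. Symbols and promoters came from RefSeq tables on GRCm38.p6, in which all 151 symbols matched. Drawing used matplotlib 3.10.9.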

Additional observations from a re-analysis of the deposited data

Results flagged for a closer look

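Among the channel and receptor genes, 4 had a differentiation response that differed between genotypes by the edgeR test of the difference itself. The difference, cKO minus control on the log2 scale, was 1.63 for the kainate receptor gene Grik1, 1.07 for the potassium channel gene Kcna6, 1.20 for the Kv4 partner Kcnip3 and 1.37 for the K2P channel gene Kcnk10. Each was above 0 under all alternatives run, between 1.5 and 1.76 for Grik1 and 0.95 and 1.18 for Kcna6. The range was 1.08 to 1.33 for Kcnip3 and 1.27 to 1.49 for Kcnk10. The calls themselves were lost without single libraries, as given above, and the genes were picked by this same test. No group has 4 or more libraries, so no group was searched for single outlying values.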

How the results depend on the processing

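Depth was similar in all libraries, and groups of 2 or 3 limit the counts. No alternative turned the direction of a called gene. For genotype in OPCs, the 9 genes higher became 3 with only the groups compared and 20 with DESeq2 or with postnatal day as a term. The none lower became 4 with postnatal day. Leaving out 1 library gave 2 to 30 higher and 0 to 3 lower. In iOLs, the 31 higher became 52 with only the groups compared, and the 5 lower became 11 there and 8 with postnatal day or DESeq2. Leaving out 1 library gave 9 to 41 higher and 0 to 8 lower. For differentiation in controls leaving out 1 library gave 9 to 18 rises and 67 to 86 falls, and in cKO 11 to 14 and 68 to 94. The difference of responses gave 19 and 6 with postnatal day, 13 and 5 with DESeq2, and 0 to 15 and 0 to 12 with 1 library left out. The cause of these shifts was not tested.

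With the replicate number as a block, genotype in OPCs gave 29 higher and 1 lower, genotype in iOLs 40 and 5, and the difference of responses 7 and 8. The labels do not say that numbers pair the samples, and deviations of same-numbered libraries correlated at 0.313 and −0.352 in OPCs and at 0.239 in iOLs. In OPCs the number 2 joins a control of postnatal day 6 with a cKO of day 7, so the block does not follow postnatal day there. OPC libraries of the same day but different number correlated at 0.352 (control 1 and cKO 2) and 0.43 (control 2 and cKO 3). In this fit cKO OPC 3, the only library numbered 3, has a term of its own and adds nothing. A library left alone in its group is assumed to vary like the others. The difference of responses has no fit with fewer groups.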
